A study of Mus musculus with 13 samples.

Results

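Neutrophil marker genes were followed in neurovascular RNA of 13 mice. The 9 genes are *S100a8*, *S100a9*, *Ltf*, *Ngp*, *Camp*, *Retnlg*, *Csf3r*, *Cxcr2* and *Trem1*, and they were chosen by symbol: each matched 1 of the 47643 genes of the count table through its Ensembl identifier. All 9 passed the filter on low counts and were among the 17285 genes tested. The mice were male CD1 animals of 8 to 10 weeks, an outbred strain, and each gave 1 library. The 4 sham-vehicle mice received PBS in place of lipopolysaccharide (LPS), and the 5 LPS-vehicle and the 4 LPS-CPD-4645 mice were injected intraperitoneally with LPS of *Salmonella enterica* typhimurium in 3 injections of 3 mg/kg, the second at 6 h and the last at 24 h after the first. CPD-4645, a carbamate that binds monoacylglycerol lipase covalently and blocks the breakdown of the endocannabinoid 2-arachidonoylglycerol, was given subcutaneously at 10 mg/kg in DMSO, Cremophor and saline after each LPS dose. The sham-vehicle and LPS-vehicle mice are labelled as given vehicle in place of CPD-4645. The brains were taken at 28 h, 4 h after the last LPS dose, without perfusion, and vessels were isolated from the frozen tissue with washes in sucrose. Blood held in the vessels is therefore part of the material, and neutrophil transcripts of the whole fraction are the subject here. The paper states that neutrophils and macrophages may adhere to the endothelium or pass into the brain after LPS. RNA of the fraction cannot tell such cells from those in held blood. In bulk RNA of this kind, fewer neutrophils and less of a transcript per neutrophil cannot be told apart.

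Neutrophils are the most abundant short-lived white blood cells of the innate response. They leave the bone marrow under the growth factor G-CSF, follow chemokines through CXCR2, and slow down and stick to inflamed endothelium through selectins and integrins. Their proteins are packed into granules in a fixed order during maturation: the transcripts of the primary granules (*Mpo*, *Elane*) belong to early precursors in the marrow, those of the specific granules (*Ltf*, *Camp*, *Ngp*) to later precursors, and *S100a8*, *S100a9*, *Csf3r*, *Cxcr2* and *Retnlg* stay on in mature cells. Monocytes also make *S100a8*, *S100a9*, *Csf3r* and *Trem1*.

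Total counts per library ran from 7813559 to 55133373, and LPS-vehicle mouse 2 had the deepest library. Values are given as CPM, counts scaled to library totals of equal size after TMM, and counts of single libraries at or below 3 carry wide counting error. The 8 endothelial marker genes were detected in every group, with *Cldn5*, the main claudin of brain endothelial tight junctions, at 75.9 ± 14.7 RPKM (SD, n = 4) in sham-vehicle mice, but *Snap25*, a synaptic protein of neurons, lay at 1546 ± 159 RPKM, so the fraction also held much neuronal RNA. Of 6 other genes that define neutrophils, *Mmp8*, *Cd177* and *Fpr1* passed the filter. The remaining 3 did not: *Ly6g*, the antigen used to sort mouse neutrophils, had 25 counts over the 5 LPS-vehicle libraries, *Mpo* had 19 and *Elane* had 6.

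*S100a8* and *S100a9* encode the subunits of calprotectin, a calcium- and zinc-binding complex that fills the neutrophil cytoplasm and is read by Toll-like receptor 4 and the receptor RAGE once released. The genes lie next to each other on chromosome 3 of GRCm38, *S100a8* at 90668978 to 90670035 on the plus strand and *S100a9* at 90692632 to 90695721 on the minus strand. *Ltf* (lactoferrin, an iron-binding protein), *Ngp* (neutrophilic granule protein) and *Camp* (the cathelicidin precursor) encode contents of the specific granules and all lie on chromosome 9, at 111019271 to 111042767, 110419747 to 110423012 and 109847379 to 109849617. The sequences before the starts of these 5 genes are shown because these genes encode calprotectin and the contents of the specific granules and were all called in the same direction after LPS and, in the opposite direction, with CPD-4645. They are the 250 bases upstream of the RefSeq start on GRCm38.p6, 5′ to 3′ on the strand of the gene. For *S100a8*, *Ltf*, *Ngp* and *Camp* this start lies inside the gene positions given above, which come from GENCODE. The windows of these genes therefore run partly into those positions. Capitals mark matches on either strand to a core C/EBP motif (TTGC, any 2 bases, then AA) or to the PU.1 motif GAGGAA, 2 families of factors that direct granulocyte genes.
S100a8 (chr3:90668821-90669070, plus strand): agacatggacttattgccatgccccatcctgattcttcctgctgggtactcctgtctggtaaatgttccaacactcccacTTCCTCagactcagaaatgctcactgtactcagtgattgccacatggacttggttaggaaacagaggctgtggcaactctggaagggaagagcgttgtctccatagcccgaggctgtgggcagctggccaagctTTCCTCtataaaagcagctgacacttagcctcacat
S100a9 (chr3:90695722-90695971, minus strand): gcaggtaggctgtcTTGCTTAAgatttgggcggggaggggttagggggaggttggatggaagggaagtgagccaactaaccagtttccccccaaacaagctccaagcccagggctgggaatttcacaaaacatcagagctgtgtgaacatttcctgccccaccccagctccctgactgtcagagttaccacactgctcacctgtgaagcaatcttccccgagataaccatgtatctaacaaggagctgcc
Ltf (chr9:111019042-111019291, plus strand): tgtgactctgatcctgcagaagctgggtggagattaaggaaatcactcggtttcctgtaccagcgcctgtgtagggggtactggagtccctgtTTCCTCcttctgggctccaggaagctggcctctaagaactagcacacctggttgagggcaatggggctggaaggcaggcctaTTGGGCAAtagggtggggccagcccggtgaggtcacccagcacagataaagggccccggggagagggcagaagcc
Ngp (chr9:110419558-110419807, plus strand): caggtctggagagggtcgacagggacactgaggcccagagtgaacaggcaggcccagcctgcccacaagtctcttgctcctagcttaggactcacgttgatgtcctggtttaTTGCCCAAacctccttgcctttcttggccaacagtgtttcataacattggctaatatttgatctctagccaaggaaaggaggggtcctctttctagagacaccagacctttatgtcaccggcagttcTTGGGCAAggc
Camp (chr9:109849457-109849706, minus strand): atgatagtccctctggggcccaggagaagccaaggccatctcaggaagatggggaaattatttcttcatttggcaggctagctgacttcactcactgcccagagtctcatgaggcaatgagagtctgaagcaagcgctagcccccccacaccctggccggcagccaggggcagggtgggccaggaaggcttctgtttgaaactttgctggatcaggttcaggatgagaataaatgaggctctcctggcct
The C/EBP motif was found before 4 of the 9 genes (*S100a9*, *Ltf*, *Ngp* and *Retnlg*) and in 9.56% of 32851 RefSeq promoter windows of the same length. GAGGAA was found before 5 (*S100a8*, *Ltf*, *Csf3r*, *Cxcr2* and *Trem1*) and in 23.3% of all windows. *Camp* had neither. These matches are letters in the sequence and were not tested as binding sites.

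LPS raised 8 of the 9 neutrophil genes, from 14.3-fold (*Ltf*) to 50.8-fold (*Trem1*), while *Csf3r*, the receptor of G-CSF, did not pass the threshold (edgeR quasi-likelihood test, called when the Benjamini-Hochberg adjusted p reached 0.05 or less with a change of 2-fold or more). Over all genes tested, 4.68% were called higher in this comparison. In the same 8 genes the lowest LPS-vehicle mouse exceeded the highest sham-vehicle mouse, which held for 9.68% of all genes tested. The median log2 fold change was 4.89 over the 9 genes and -0.00 over all genes. The count of 8 was the same when any of the 13 mice was left out. *Camp*, *Retnlg* and *Cxcr2* passed the filter on low counts only through the LPS-vehicle libraries, and *Trem1* only through libraries of mice given LPS, so their difference from the low groups is in part set by the filter. With no filter the counts were 8 higher after LPS and 9 lower with CPD-4645.

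*S100a9* had the highest mean CPM of the 9 genes in LPS-vehicle mice. It lay at 2.08, 1.57, 0.677 and 0.593 CPM in sham-vehicle mice 1 to 4 and at 35.6, 113, 45.0, 24.6 and 28.9 CPM in LPS-vehicle mice 1 to 5. Its rise was 5.26 ± 0.57 on the log2 scale (SE, adjusted p = 2.8e-06, edgeR). *S100a8* lay at 1.48, 0.965, 0.876 and 0.247 CPM in sham-vehicle and at 21.4, 55.5, 20.3, 14.9 and 13.2 CPM in LPS-vehicle mice, a rise of 4.74 ± 0.54 (adjusted p = 5.5e-06, edgeR). Mouse 2 was the highest of the LPS-vehicle mice for both genes, and the other 4 LPS-vehicle mice still lay far above the sham-vehicle range. Without mouse 2 the rises were 4.70 ± 0.46 for *S100a9* and 4.22 ± 0.45 for *S100a8*, and both stayed past the threshold.

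Of the 3 members that belong to the specific granules, *Ngp* had the highest mean CPM in LPS-vehicle mice. It lay at 1.11, 0.442, 1.91 and 0.395 CPM in sham-vehicle and at 16.8, 74.8, 28.9, 16.2 and 9.69 CPM in LPS-vehicle mice, a rise of 4.89 ± 0.64 (adjusted p = 2.2e-05, edgeR). *Ltf* lay at 0.257, 0.684, 0.438 and 0 CPM and then at 3.57, 11.5, 4.03, 3.61 and 2.21 CPM, a rise of 3.83 ± 0.62 (adjusted p = 0.00022, edgeR). *Camp* had 2, 0, 6 and 0 counts in the sham-vehicle libraries, and its LPS-vehicle values were 1.55, 4.93, 2.65, 0.821 and 0.686 CPM (log2 fold change 4.73 ± 0.86, adjusted p = 0.00067, edgeR). Groups did not overlap for any of the 3, and mouse 2 was again the highest LPS-vehicle mouse. Without it the rises were 4.15 ± 0.49 for *Ngp*, 3.24 ± 0.60 for *Ltf* and 4.08 ± 0.86 for *Camp*, and the 3 calls stood. *Retnlg*, a secreted resistin-like protein of mouse neutrophils (chromosome 16, 48872621 to 48874496), had 7, 0, 8 and 0 sham-vehicle counts and lay at 2.16, 10.5, 5.04, 2.27 and 6.92 CPM after LPS, a rise of 5.24 ± 0.95 (adjusted p = 0.00066, edgeR). Leaving out sham-vehicle mouse 3, which held 6 of the 8 sham-vehicle counts of *Camp* and 8 of the 15 of *Retnlg*, moved the rises to 6.21 ± 1.04 and 5.95 ± 1.15.

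Of the 3 surface receptors, *Trem1* and *Cxcr2* were called higher after LPS and *Csf3r* was not. *Trem1*, which amplifies inflammatory signals through the adaptor TYROBP (chromosome 17, 48232768 to 48246924, over a processed pseudogene on the other strand), had 1, 3, 0 and 3 counts in the sham-vehicle libraries and lay at 2.85, 3.95, 5.42, 4.33 and 2.12 CPM after LPS (log2 fold change 5.67 ± 0.58, adjusted p = 1.5e-06, edgeR). It was the only member whose highest LPS-vehicle mouse was not mouse 2. With so few sham-vehicle reads, the ratio of the pooled counts, 575 against 7, was 53.1 with a 95% counting interval of 25.6 to 133. *Cxcr2*, the receptor for the chemokines CXCL1, CXCL2 and CXCL5 (chromosome 1, 74153989 to 74161246), had 2 counts in all, in sham-vehicle mouse 3, against 0.412, 2.19, 0.504, 0.904 and 1.16 CPM after LPS. Its pooled counts, 210 against 2, gave a ratio of 67.9 with an interval of 18.6 to 564 (fitted log2 fold change 5.51 ± 0.96, adjusted p = 0.00045, edgeR). LPS-vehicle mouse 2 held 122 of the 210 counts, and the fitted value was 5.00 ± 0.99 without it. Without sham-vehicle mouse 3 the other 3 sham-vehicle libraries are at 0, and the fitted value of 7.91 then depends on the prior count and gives no bound. These intervals cover counting error only.

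*Csf3r* (chromosome 4, 126024550 to 126044440) was already present in sham-vehicle mice, at 5.62, 6.96, 4.30 and 2.42 CPM. It lay at 8.34, 8.70, 4.03, 6.02 and 5.66 CPM in LPS-vehicle mice, and the groups overlapped. The log2 difference was 0.46 ± 0.34 (95% interval -0.26 to 1.17, adjusted p = 0.39, edgeR). It turned to -0.15, also short of the threshold, when the counts of endothelial markers served as the library scale.

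**Figure D1:**
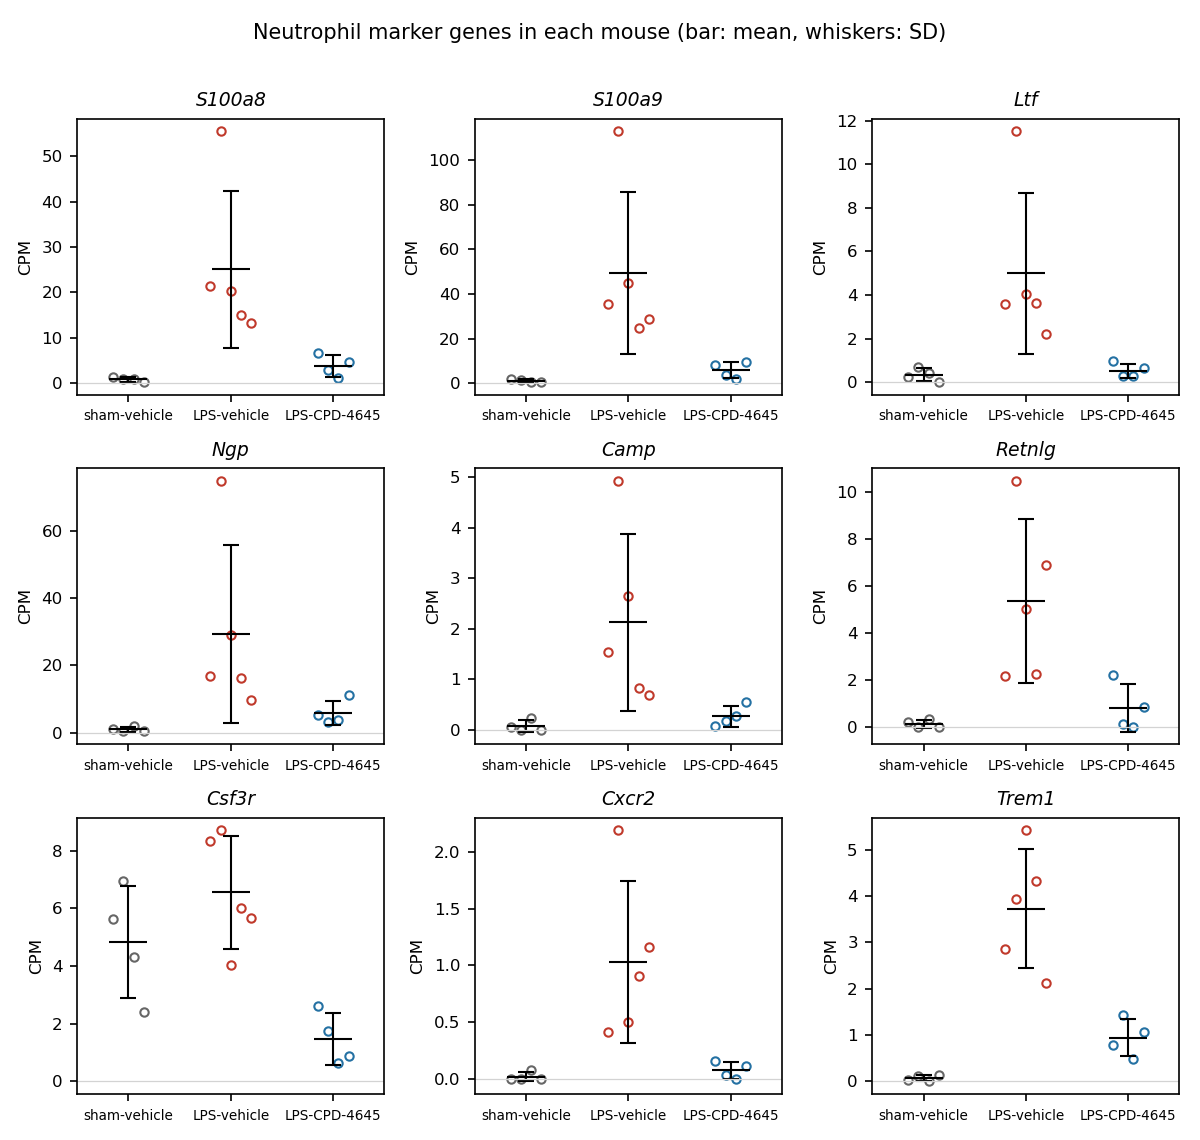
CPM of the 9 genes in each of the 13 mice, 1 circle per mouse, ordered by mouse number within a group. The black bar is the mean and the whiskers the SD. The second LPS-vehicle circle (mouse 2) is the highest in every panel but that of *Trem1*, and the sham-vehicle mice of *Csf3r* lie within reach of the LPS-vehicle mice.

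Treatment with CPD-4645 after each LPS dose was followed by lower levels of all 9 neutrophil genes than in LPS-vehicle mice, from 3.85-fold lower (*Trem1*) to 15-fold lower (*Cxcr2*). All 9 were called lower, against 4.19% of all genes tested, and for *Camp*, *Retnlg* and *Cxcr2* the filter again needed the LPS-vehicle libraries. For 7 of them every LPS-CPD-4645 mouse lay below every LPS-vehicle mouse, and 12% of all genes were separated in this way. *Ngp* and *Retnlg* overlapped. The median log2 fold change was -2.90 over the 9 genes and -0.02 over all genes. The 9 calls held when any mouse was left out. When the test was made against the 2-fold change itself, 3 of the 9 genes passed (*S100a8*, *S100a9* and *Ltf*) and 35 of all genes were called lower. DESeq2 left *Retnlg* at an adjusted p of 0.073.

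Both calprotectin genes were lower with CPD-4645. *S100a9* lay at 8.38, 3.92, 1.77 and 9.34 CPM in LPS-CPD-4645 mice 1 to 4, a difference of -3.12 ± 0.49 from LPS-vehicle (adjusted p = 0.00019, edgeR). *S100a8* lay at 6.72, 2.87, 1.20 and 4.59 CPM, a difference of -2.77 ± 0.48 (adjusted p = 0.00038, edgeR). The highest treated mouse of each gene was below the lowest LPS-vehicle mouse, which had 24.6 and 13.2 CPM. Leaving out LPS-vehicle mouse 2 made the differences smaller, at -2.54 ± 0.40 and -2.22 ± 0.40, and both remained called.

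*Ltf* lay at 0.949, 0.280, 0.263 and 0.628 CPM in the treated mice, within reach of the sham-vehicle values, and differed from LPS-vehicle by -3.35 ± 0.61 (adjusted p = 0.00063, edgeR). *Camp* lay at 0.0791, 0.175, 0.263 and 0.549 CPM, a difference of -2.90 ± 0.74 (adjusted p = 0.0066, edgeR). *Ngp* lay at 5.38, 3.04, 3.80 and 11.0 CPM. Its mouse 4 was above the lowest LPS-vehicle mouse, at 9.69 CPM, and the difference was -2.34 ± 0.54 (adjusted p = 0.0032, edgeR). Without LPS-vehicle mouse 2 the differences were -2.73 ± 0.59 for *Ltf*, -2.26 ± 0.75 for *Camp* and -1.60 ± 0.42 for *Ngp*, all 3 still called. *Retnlg* was spread over the treated mice, at 2.21, 0.140, 0 and 0.863 CPM, and mouse 1 reached the low end of the LPS-vehicle range (difference -2.95 ± 0.81, adjusted p = 0.010, edgeR). Treated mouse 1 gave 68.8% of the summed CPM of its group, and without it the difference was -4.01 ± 0.86. With limma-voom it was -4.49 ± 1.28.

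All 3 receptors were lower with CPD-4645. *Cxcr2* had 2, 1, 0 and 3 counts in the treated libraries, and the pooled LPS-vehicle counts were 20.0 times as high per read (95% counting interval 9.06 to 55.2). LPS-vehicle mouse 2 held 122 of the 210 counts, and without it the fitted log2 difference went from -3.91 ± 0.84 to -3.42 ± 0.86, still called. *Trem1* lay at 0.791, 1.43, 0.489 and 1.06 CPM, a difference of -1.94 ± 0.42 (adjusted p = 0.0022, edgeR). *Csf3r*, which had not passed the threshold after LPS, lay at 2.61, 1.75, 0.640 and 0.863 CPM, a difference of -2.25 ± 0.38 (adjusted p = 0.00035, edgeR).

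**Figure D2:**
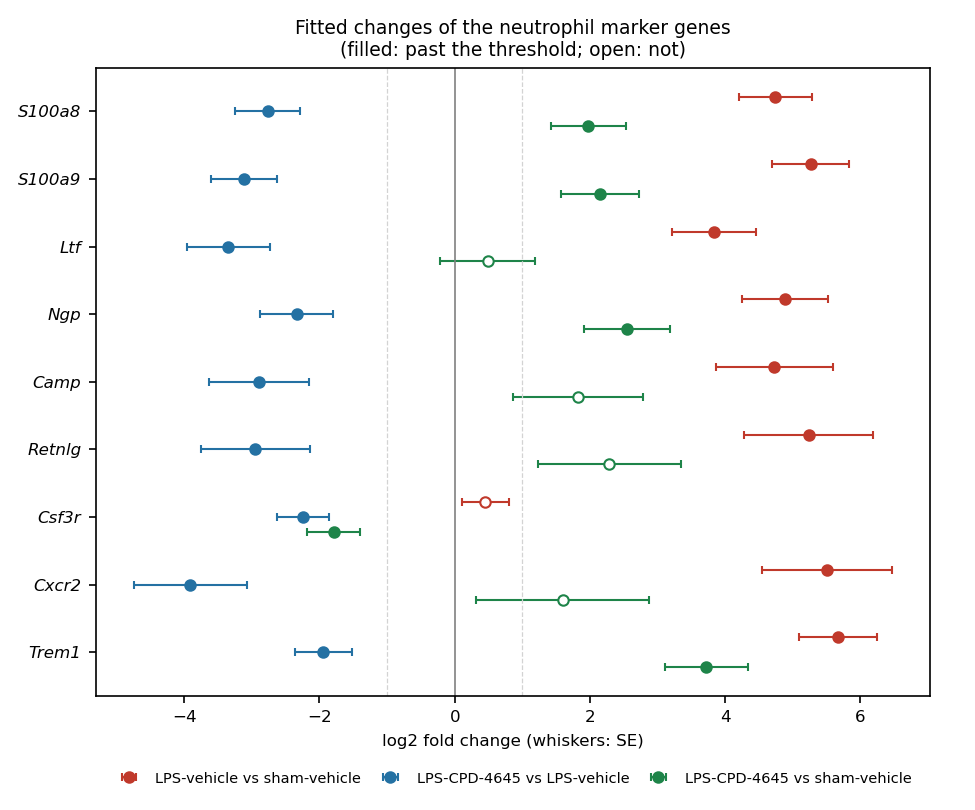
Log2 fold changes of the 9 genes in the 3 comparisons, from the edgeR fit of all 13 mice; whiskers are SE, filled points passed the threshold and dashed lines mark 2-fold. The comparisons share mice, so they are not independent. All 9 blue points (LPS-CPD-4645 against LPS-vehicle) lie below -1, and the green points (LPS-CPD-4645 against sham-vehicle) run from -1.79 for *Csf3r* to 3.72 for *Trem1*.

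Set beside sham-vehicle mice, 5 of the 9 genes were called in the treated mice. *S100a8*, *S100a9*, *Ngp* and *Trem1* were called higher than in sham-vehicle (4 of 9, against 6.11% of all genes), *Csf3r* was called lower (1 of 9, against 4.98%), and *Ltf*, *Camp*, *Retnlg* and *Cxcr2* did not pass the threshold. The difference between called and uncalled genes was not tested, and *Retnlg* and *Camp* had estimates near those of *S100a8* and *S100a9*. *Trem1* was the furthest above sham-vehicle, by 3.72 ± 0.61 (adjusted p = 0.00012, edgeR), with a ratio of pooled counts of 14.7 (91 against 7 counts, 95% counting interval 6.84 to 37.5). *Ngp* was higher by 2.55 ± 0.64 (adjusted p = 0.0042, edgeR), and for these 2 genes every treated mouse lay above every sham-vehicle mouse, as in 18.7% of all genes tested.

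*S100a9* was 4.43-fold higher than in sham-vehicle mice (adjusted p = 0.0066, edgeR) and *S100a8* 3.94-fold (log2 difference 1.98 ± 0.55, adjusted p = 0.0088, edgeR), with overlapping groups, since treated mouse 3 had 1.77 and 1.20 CPM. The calls of *S100a8*, *S100a9* and *Ngp* were lost with limma-voom, at adjusted p of 0.27, 0.24 and 0.19. For *Ltf* the difference was 0.49 ± 0.71 (95% interval -1.0 to 1.97, adjusted p = 0.62, edgeR), for *Camp* 1.83 ± 0.96 (-0.19 to 3.84), for *Retnlg* 2.29 ± 1.06 (0.06 to 4.51) and for *Cxcr2* 1.60 ± 1.28 (-1.09 to 4.29). The last 3 rest on few counts and on single mice: without sham-vehicle mouse 3, *Camp* was called higher at 3.33 ± 1.16 (adjusted p = 0.036, edgeR). *Retnlg* was called without treated mouse 3 (2.77 ± 0.95, adjusted p = 0.032, edgeR) and with no filter on low counts (adjusted p = 0.045, edgeR), and lay at 1.22 ± 1.06 without treated mouse 1 and at 3.01 ± 1.25 without sham-vehicle mouse 3, with no call. For *Cxcr2*, the sham-vehicle libraries are all at 0 without mouse 3. *Csf3r* was lower than in sham-vehicle mice (log2 difference -1.79 ± 0.39, adjusted p = 0.0016, edgeR). Treated mouse 1, at 2.61 CPM, overlapped with sham-vehicle mouse 4, at 2.42 CPM.

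Shares of the summed counts of the 9 genes are tied to each other, so the share of *Csf3r* had to fall where the other 8 genes rose and *Csf3r* did not pass the threshold. In sham-vehicle mice *Csf3r* took 48.6% to 64.8% of the counts of the 9 genes. Its share was 3.05% to 9.0% in LPS-vehicle and 2.97% to 12.8% in LPS-CPD-4645 mice, so the sham-vehicle mice stood apart and the LPS groups overlapped. *S100a8* and *S100a9* together took 17.6% to 32.9% in sham-vehicle, 53.6% to 61.5% in LPS-vehicle and 35.3% to 55.4% in treated mice. *Ltf*, *Ngp* and *Camp* together took 10.4% to 29.3%, 17.8% to 32.0% and 23.5% to 51.3%. The largest granule shares were those of treated mice 3 and 4, where *Ngp* was the largest part. Per length of transcript, *S100a9* was 1.54 to 2.06 times *S100a8* in LPS-vehicle mice, 1.16 to 1.89 times in treated mice and 0.719 to 2.23 times in sham-vehicle mice, and these ranges overlap.

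**Figure D3:**
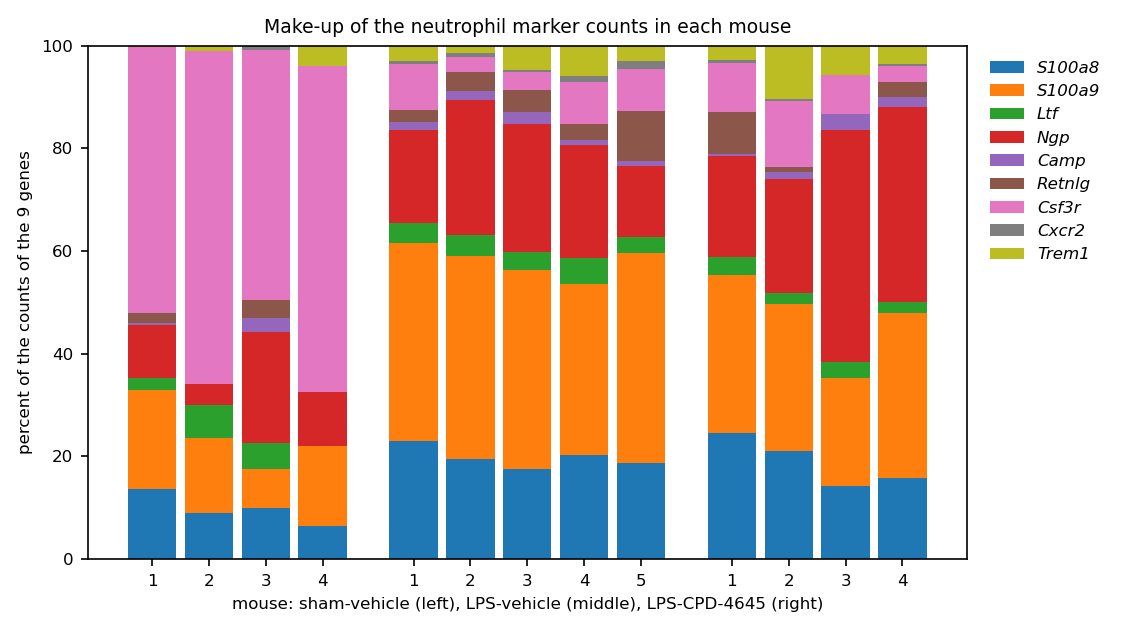
Share of each gene, in percent, of the summed counts of the 9 genes, 1 bar per mouse. *Csf3r* (pink) fills 48.6% or more of every sham-vehicle bar and at most 12.8% of any bar after LPS; the bars of treated mice 3 and 4 have the widest *Ngp* (red) segments. The sham-vehicle bars rest on 77 to 380 counts each.

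Compared per length of transcript in LPS-vehicle mice, *S100a9* was the most abundant at 94.6 RPKM on average, followed by *S100a8* at 51.5, *Ngp* at 24.0, *Retnlg* at 9.07, *Camp* at 2.81, *Csf3r* at 1.87, *Ltf* at 1.78, *Trem1* at 1.25 and *Cxcr2* at 0.339 RPKM. *S100a9* was above *S100a8*, and *S100a8* above the other genes, in each of the 5 mice. *Ngp* was above *Retnlg* in 4 of the 5. From *Camp* to *Trem1* the ranges over mice overlapped, so the order within these 4 is not firm. In sham-vehicle mice *Csf3r*, at 1.38 RPKM, stood beside *S100a8* at 1.84 and *S100a9* at 2.36 RPKM, and its values overlapped with theirs.

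The summed level of the 9 genes was 3.80 to 10.8 CPM in sham-vehicle, 70.5 to 285 CPM in LPS-vehicle and 8.43 to 29.0 CPM in LPS-CPD-4645 mice. LPS-vehicle mouse 2, at 285 CPM, was set apart from the other 4, which reached at most 116 CPM. Other blood and vessel cells were read from marker lists in the same libraries. The red blood cell list (6 genes, led by the hemoglobin genes *Hbb-bs* and *Hba-a1*) summed to 468 to 958 CPM in sham-vehicle, 239 to 460 CPM in LPS-vehicle and 325 to 706 CPM in treated mice. *Hbb-bs* and *Hba-a1* were lower after LPS by less than 2-fold (-0.84 and -0.74 on the log2 scale), none of the 4 tested genes was called in any comparison, and its median log2 fold changes, -0.90 with LPS and 0.49 with CPD-4645, had the opposite sign to those of the neutrophil genes. The platelet list was at 12.4 to 17.8, 11.7 to 17.0 and 14.9 to 21.5 CPM, with none of 3 tested genes called. Most of that sum was *Gp1bb*, which overlaps *Sept5* and *Gm49601* on the same strand, so it may not count platelets alone, and with CPD-4645 *Gp1bb* differed by 0.60 ± 0.17 and *Itga2b* by -0.66 ± 0.24.

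Of 10 monocyte and macrophage genes, 9 were tested: 7 rose after LPS and 4 were lower with CPD-4645 (*Lyz2*, *Ms4a6c*, *F13a1* and *Adgre1*). The list summed to 67.7 to 99.5 CPM in sham-vehicle, 130 to 195 CPM in LPS-vehicle and 59.1 to 101 CPM in treated mice. *Ly6c2*, an antigen of inflammatory monocytes, lay at 3.27 ± 1.74 CPM (SD, n = 5) in LPS-vehicle and 2.04 ± 1.52 CPM (n = 4) in treated mice and was not called lower (adjusted p = 0.32, edgeR). *Ccr2*, the chemokine receptor of these cells, did not pass the filter and had 4, 53 and 7 counts in sham-vehicle, LPS-vehicle and treated libraries. What monocytes, microglia or other cells contributed to *S100a8*, *S100a9*, *Csf3r* and *Trem1* was not tested. In sham-vehicle mice *Csf3r* lay at 4.82 ± 1.94 CPM (SD) and *Cxcr2* at 0.0199 ± 0.0398 CPM, and which cells gave *Csf3r* there was not tested.

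Microglial genes went the other way after LPS: 4 of 8 fell (*P2ry12*, *Gpr34*, *Siglech* and *Fcrls*), and 1, *Siglech*, was higher with CPD-4645. Their sum was 192 to 252, 116 to 220 and 121 to 148 CPM. Of 8 endothelial genes, 3 rose and 2 fell after LPS and none was called with CPD-4645, and the sum was 298 to 491, 366 to 729 and 393 to 540 CPM. Lymphocyte genes summed to at most 0.88 CPM and eosinophil, basophil and mast cell genes to at most 0.93 CPM in any mouse, with *Mcpt8* at 0 throughout.

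**Figure D4:**
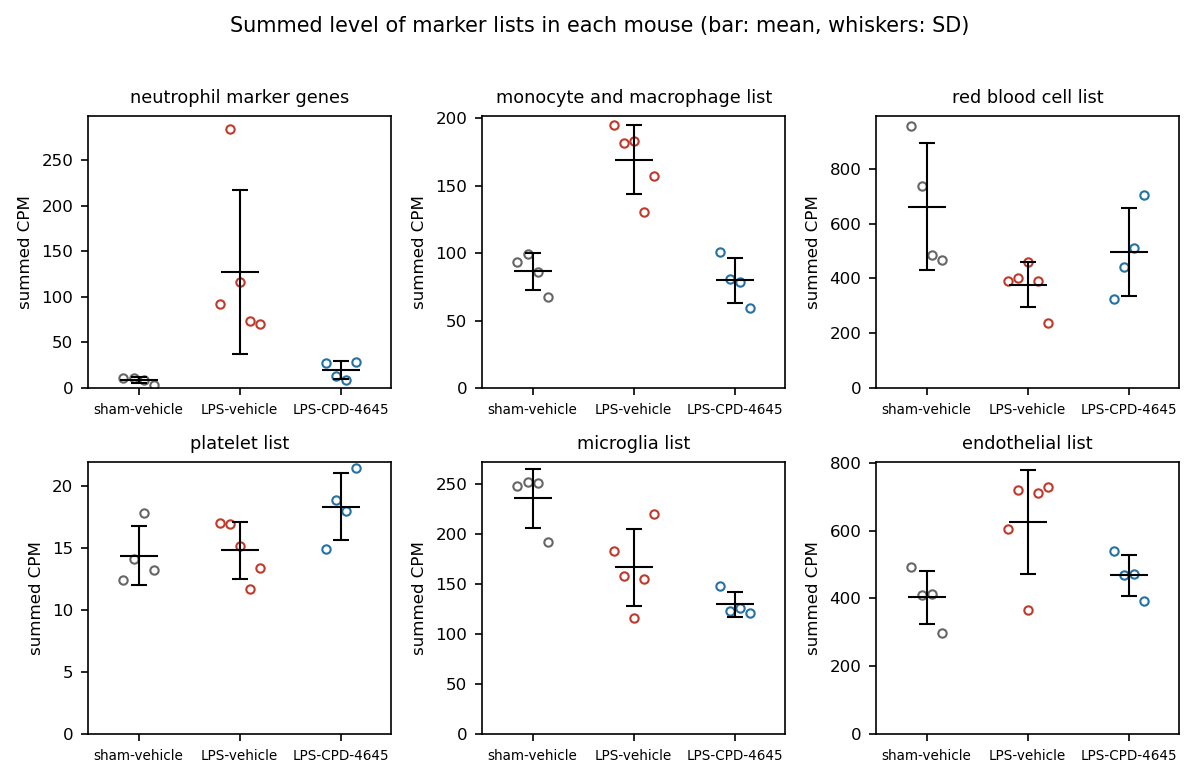
Summed CPM of the 9 neutrophil genes and of 5 marker lists in each mouse, 1 circle per mouse with mean (bar) and SD (whiskers), each panel on its own scale from 0. The neutrophil and monocyte panels peak in LPS-vehicle mice, whereas the red blood cell sum is highest in a sham-vehicle mouse (958 CPM) and the platelet sum in a treated mouse (21.5 CPM).

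A wider set of neutrophil genes was read beside the 9. Of 40 further genes that neutrophils are known for (granule contents and surface, cytoplasmic and secreted proteins), 30 passed the filter, 22 were higher and 1 lower after LPS, and 17 were lower and 1 higher with CPD-4645. Of all genes tested, 4.68% were called higher after LPS and 4.19% lower with CPD-4645. The median log2 fold changes of the 30 were 3.77 and -1.39, against -0.00 and -0.02 over all genes. *Cd177*, *Stfa2* and *Stfa3* had at most 9 summed counts in the sham-vehicle or the treated group, so the filter in part sets their differences. Which cells the 30 transcripts came from was not tested. Of the specific and gelatinase granule genes other than the members, all 7 tested rose after LPS. *Mmp8* (neutrophil collagenase), *Chil3*, *Cd177* and *Hp* (haptoglobin) were lower with CPD-4645, by -3.18 ± 0.73, -2.56 ± 0.44, -4.20 ± 0.96 and -1.44 ± 0.37. For *Cd177*, 1 LPS-vehicle library held 304 of the 385 counts of its group, and the highest mouse was at 5.45 CPM against a group median of 0.858. The other 3 tested, *Lcn2*, *Mmp9* (-0.73 ± 0.27) and *Pglyrp1*, were not called. *Lcn2*, which many tissues also make in the acute phase, lay at 23.5 ± 23.1 CPM in sham-vehicle, 700 ± 191 CPM in LPS-vehicle and 778 ± 125 CPM in treated mice. The treated and LPS-vehicle mice differed by 0.15 ± 0.40 for this gene (adjusted p = 0.80, edgeR). *Prtn3* was the only primary granule gene of 5 to pass the filter and was not called in any comparison. The others, *Mpo*, *Elane*, *Ctsg* and *Ms4a3*, had at most 20 counts in any group.

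Of 12 surface genes tested, 9 rose after LPS and 8 were lower with CPD-4645, among them the formyl peptide receptor *Fpr1*, the decoy receptor *Il1r2*, the complement receptor *C5ar1* and the integrin genes *Itgam* and *Itgb2*. *Itgam* fell the most of these, by -2.22 ± 0.27. *Cxcr1* and *Mrgpra2b* had no counts in sham-vehicle or treated mice. Of 10 cytoplasmic and secreted genes, 6 rose and 1 fell after LPS, and 5 were lower and 1 higher with CPD-4645. The stefin genes *Stfa2*, *Stfa2l1* and *Stfa3*, cysteine protease inhibitors whose near-identical copies make the split of reads uncertain, were among the 5, and *Stfa3* went from 262 counts in the LPS-vehicle libraries to 0 in the treated ones. *Stfa1* was at 0 throughout. *Padi4*, the enzyme that citrullinates histones in neutrophil nets, ran against the rest, at 4.65 ± 2.35 CPM in sham-vehicle, 0.496 ± 0.728 CPM in LPS-vehicle and 2.92 ± 2.85 CPM in treated mice. The 4 transcription factors tested (*Spi1*, *Cebpa*, *Cebpb* and *Cebpd*) all rose after LPS and none was called with CPD-4645. *Cebpe*, a factor of granulocyte precursors, had 1 count in sham-vehicle and 1 in treated mice.

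All 5 tested ligand genes of the receptors rose after LPS, and 1 of them, *Cxcl5*, was called lower with CPD-4645. *Csf3*, which encodes G-CSF, the ligand of CSF3R, lay at 1.72 ± 1.71 CPM in sham-vehicle, 109 ± 89.2 CPM in LPS-vehicle and 60.1 ± 32.9 CPM in treated mice, and the treated mice differed from LPS-vehicle by -0.87 ± 0.52 (95% interval -1.97 to 0.23, adjusted p = 0.22, edgeR). *Cxcl1* and *Cxcl2*, which encode ligands of CXCR2, rose by 5.02 ± 0.73 and 4.95 ± 0.82 after LPS and differed by -0.00 ± 0.56 and -0.13 ± 0.62 with CPD-4645. Single mice weigh on these rises. The highest sham-vehicle mouse of *Cxcl1* was at 9.10 CPM (group median 1.94), and the highest LPS-vehicle mouse of *Cxcl2* at 89.2 CPM (group median 17.0). For *Cxcl5*, from the same chemokine family, the difference was -1.33 ± 0.41 (adjusted p = 0.019, edgeR). *Pglyrp1*, whose protein has been described as a ligand of TREM1, was not called lower (-0.37 ± 0.24, adjusted p = 0.26, edgeR). *Cxcl3* did not pass the filter and had 1, 213 and 6 counts in sham-vehicle, LPS-vehicle and treated libraries. *Ppbp* did not pass either, and *Cxcl15* was at 0.

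Of 9 genes that signal with the members, 5 rose after LPS: *Socs3* and *Stat3*, which act downstream of the G-CSF receptor, *Tyrobp* and *Syk*, which carry the signal of TREM1, and *Ager*, which encodes RAGE. With CPD-4645, *Tyrobp* was lower (-1.23 ± 0.25, adjusted p = 0.0012, edgeR) and *Ager* higher (1.28 ± 0.31, adjusted p = 0.0043, edgeR). *Socs3* was at 87.4 ± 43.5 CPM in LPS-vehicle and 75.0 ± 18.4 CPM in treated mice, with no call. *Stat3* went the other way from the members, from 110 ± 29.0 CPM in LPS-vehicle to 187 ± 20.4 CPM in treated mice. Its difference was 0.78 ± 0.14 (adjusted p = 0.00066, edgeR), short of 2-fold and so not called.

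The vessel side of neutrophil adhesion was read from 4 endothelial molecules, and all 4 rose after LPS. *Selp* (P-selectin) and *Sele* (E-selectin), on which neutrophils roll, were lower with CPD-4645, by -1.84 ± 0.33 (adjusted p = 0.00051, edgeR) and -1.78 ± 0.59 (adjusted p = 0.028, edgeR). For *Sele*, the highest treated mouse was at 7.27 CPM (group median 1.87) and the highest LPS-vehicle mouse at 20.8 CPM (group median 7.83). *Icam1*, on which they arrest through integrins, was at 142 ± 78.9 CPM in LPS-vehicle and 118 ± 39.7 CPM in treated mice (adjusted p = 0.58, edgeR), and *Vcam1* differed by less than 2-fold (-0.61 ± 0.18).

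**Figure D5:**
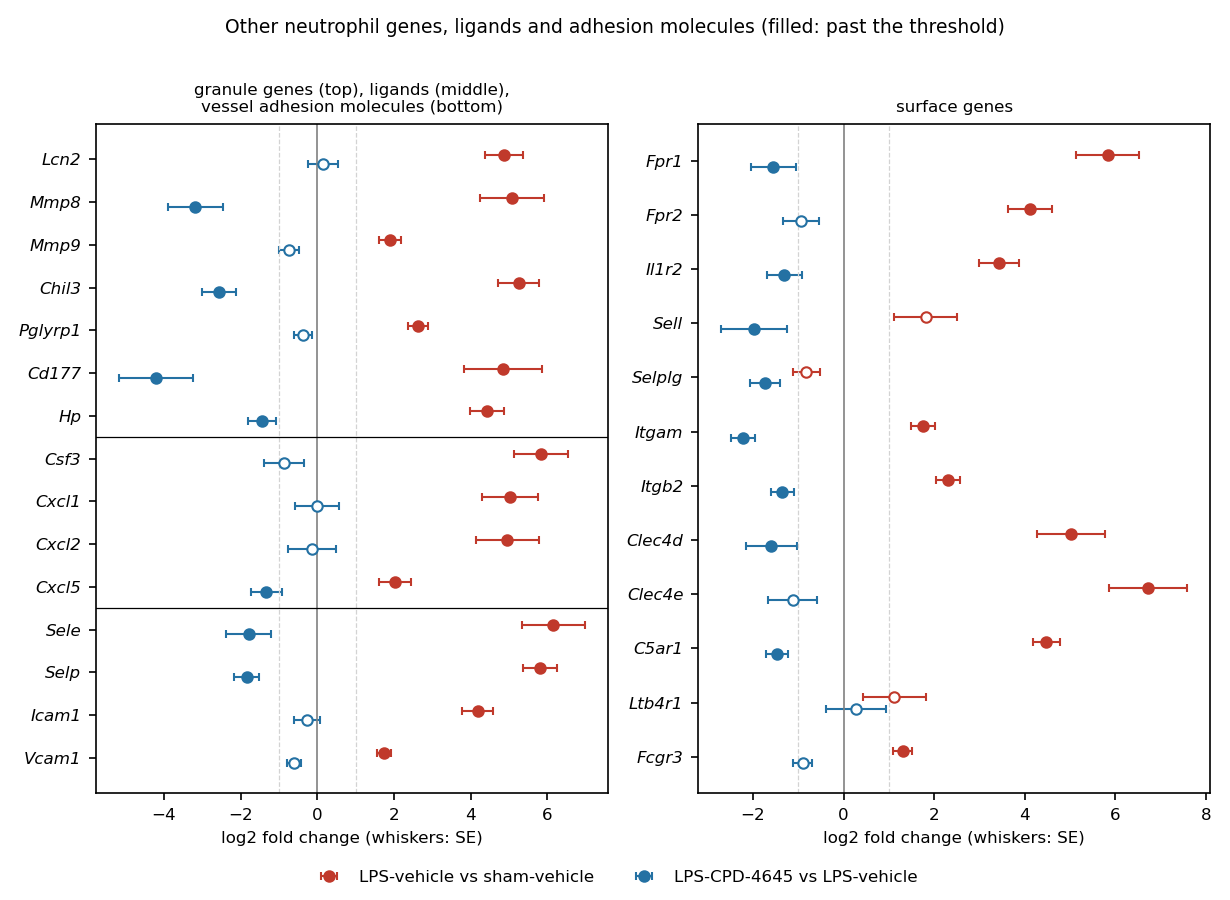
Log2 fold changes (points, with SE as whiskers) of granule genes, ligands and vessel adhesion molecules (left) and of neutrophil surface genes (right), after LPS (red) and with CPD-4645 against LPS-vehicle (blue); filled points passed the threshold, and the panels have their own scales. *Lcn2*, *Cxcl1* and *Cxcl2* have a blue point near 0, while *Mmp8*, *Cd177* and *Itgam* lie below -2.

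Over the 13 mice, the genes whose profile was most like the mean profile of the 9 were *Il2rg*, *Stra6*, *Fam129a*, *Mmp8*, *Ifitm6*, *Gm49342*, *Slfn4*, *F11r*, *Tgfb1* and *F630028O10Rik*, at root mean square distances of 0.24 to 0.37 SD. The likeness was measured on standardized log2 CPM over all tested genes averaging 1 CPM or more. The members themselves lay at 0.17 (*S100a8*) to 0.97 SD (*Csf3r*) from their own mean. Over the 9 LPS-treated mice alone, the nearest were *Esam*, *Slfn4*, *Ggt1*, *Stra6* and *St3gal1*, at 0.16 to 0.22 SD. *Slfn4* and *Stra6* were in both sets, and *Slfn4* lay at 0.05 ± 0.10, 3.36 ± 1.86 and 0.53 ± 0.21 CPM in sham-vehicle, LPS-vehicle and treated mice. These distances share libraries with every result above and are a description.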

How the data were processed

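RNA of brain vessels from 13 mice was sequenced as stranded poly(A) libraries from 50 ng of RNA. The deposited values are raw read counts per gene, which the authors made with STAR 2.5.2a on GRCm38 with GENCODE M9 annotation; which strand column was kept is not given in the sources used here. Replicates are separate mice. Gene symbols and positions came from GENCODE M21, which matched 47224 of 47643 identifiers. Genes were kept with edgeR's filter (minimum count 10, minimum total 15) and library sizes were scaled by TMM (factors 0.908 to 1.08). All 13 mice entered 1 edgeR 4.0.16 quasi-likelihood fit (R 4.3.3), with p-values adjusted over all 17285 tested genes by Benjamini-Hochberg. A gene was called at an adjusted p of at most 0.05 and at least 2-fold. RPKM used the summed exon length. The study's own test, limma-voom, was an alternative, as were DESeq2 1.42.0, a test against 2-fold, other filters and scalings, a replicate block and leaving out each mouse. The fit was tested on simulated data. Named were the 9 members, from each list up to 5 called genes by absolute log2 fold change per comparison and any gene at 0, and the 10 genes (13 mice) and 5 genes (LPS-treated mice) nearest in profile; other list genes named were chosen after their values were seen. Members and lists were chosen with earlier results of these data known. Total counts of 7813559 to 55133373 set the precision; members at 10 counts or fewer in a library are read with counting error.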

Additional observations from a re-analysis of the deposited data

Results flagged for a closer look

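In 27 groups of 4 or 5 mice, 1 group for each gene and condition, 4 held a mouse set far from the others. Chance gives about 1 in 20 for a single group, and the count is not read against it, since 3 of the 4 are the same mouse and the fourth is a library with counts among libraries at 0. LPS-vehicle mouse 2 stood apart for *S100a8* at 55.5 CPM (next 21.4), for *S100a9* at 113 CPM (next 45.0) and for *Ltf* at 11.5 CPM (next 4.03). It was also the deepest library, and what sets it apart was not tested. For *Cxcr2*, sham-vehicle mouse 3 stood apart at 0.0797 CPM, which is 2 counts against 0 in the other 3 mice.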

How the results depend on the processing

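The number of neutrophil genes called higher after LPS was 8 under every alternative except a mean count of at least 50, which left 7 genes to test and 6 called. For LPS-CPD-4645 against LPS-vehicle, 9 were called, 8 with DESeq2, 7 of 7 tested with a mean count of at least 50, and 3 when tested against 2-fold. For LPS-CPD-4645 against sham-vehicle, 5 were called, 2 with limma-voom, 2 with voomWithQualityWeights, 1 when tested against 2-fold and 6 with no filter. Leaving out 1 mouse gave 8 to 8, 9 to 9 and 5 to 6, the sixth being *Camp* without sham-vehicle mouse 3 and *Retnlg* without LPS-CPD-4645 mouse 3; with no filter it was *Retnlg*. With endothelial marker counts as the library scale, the median of all genes moved to -0.61 after LPS and to 0.34 with CPD-4645, the split of calls became 486 higher and 1815 lower after LPS (809 and 172 before) and 782 and 202 with CPD-4645 (294 and 725 before), and 725 and 1345 for LPS-CPD-4645 against sham-vehicle (1056 and 861 before), and *Csf3r* after LPS turned to -0.15; the cause was not tested. Deviations from the group mean were correlated at -0.03 to 0.11 between same-numbered mice, with 1 of 12 correlations over 0.1. In 6 of 12 mice the nearest mouse of another group had the same number, and no chance value was set for this count. Whether mice of the same number shared a batch was not tested. A fit with the replicate number as a block called 8, 9 and 5 genes. Depth limits *Cxcr2*, *Trem1*, *Camp* and *Retnlg*, where single sham-vehicle libraries held 0 to 8 counts.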
